A study of Mus musculus with 4 samples.

Results

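Binding of SMAD4 was examined at 10 mouse genes whose products hold back SMAD signals: the nuclear corepressors Ski, Skil, Tgif1 and Tgif2, the ubiquitin ligases Smurf1, Smurf2 and Trim33, and the membrane proteins Pmepa1, Ldlrad4 and Bambi. They were chosen by function, with earlier results of these data known, and are 10 of 20923 protein-coding genes with curated RefSeq transcripts. Each gene was given a window made of its gene body and 50 kb on either side of each of its transcription start sites (TSSs). A peak belonged to the gene when its summit lay in that window. The windows held 27 of the 16369 SMAD4 peaks of replicate 1 and 27 of the 19015 peaks of replicate 2. A shared region was the merged stretch of peaks from both lists with an overlap of 1 bp or more, and 19 of the 10964 such regions lay at these genes.

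The cells were alveolar macrophages (AMs), which live in the airspaces of the lung, taken by lavage from adult wild-type C57BL/6J mice and sorted by flow cytometry. SMAD4 was profiled by HT-ChIPmentation, in which bead-bound chromatin is tagged with sequencing adapters by a transposase before the DNA is released. The series has 4 samples, 2 SMAD4 libraries and 2 input libraries made without the immunoprecipitation, all untreated and of a single genotype. Whether the 2 SMAD4 libraries came from separate mice is not stated, so the spread between them may be technical, and with 1 condition the comparisons were between genes, between regions and between the libraries.

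TGFβ receptors phosphorylate SMAD2 and SMAD3, which join SMAD4 and enter the nucleus to bind DNA. SKI and SnoN, the product of Skil, bind these SMAD complexes and recruit histone deacetylases, and the TGIF homeodomain proteins act in a similar way. SMURF1 and SMURF2 mark SMADs and receptors for degradation, TRIM33 ubiquitinates SMAD4, PMEPA1 and LDLRAD4 keep SMAD2 and SMAD3 from the receptors, and BAMBI resembles a receptor but lacks a kinase. Several of these genes, Skil and Smurf2 among them, are known in other cells as targets of the same SMADs. AMs depend on TGFβ for their development and upkeep.

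The sequences that carry the strongest region and the promoter regions of the corepressors are given first, on the plus strand of mm10 as read from the RefSeq genome of that build. Each spans 100 bp on either side of the mean summit. The Skil sequence nearest to the start site ends at the base before that site. Capitals mark the short strings searched for on both strands: the SMAD box CAGAC, its extended form GTCTGG, the GC-rich SMAD boxes GGCGC and GGCCG, the CEBP string TTGCNNAA, the PU.1 string GAGGAA, the AP-1 string TGANTCA, the RUNX string TGTGGT and the nuclear receptor string AGGTCA. The first pair shows the intronic Ski regions and the other three the promoter regions of Skil and Tgif1.
Ski intron 1, stronger region, chr4:155217225-155217425: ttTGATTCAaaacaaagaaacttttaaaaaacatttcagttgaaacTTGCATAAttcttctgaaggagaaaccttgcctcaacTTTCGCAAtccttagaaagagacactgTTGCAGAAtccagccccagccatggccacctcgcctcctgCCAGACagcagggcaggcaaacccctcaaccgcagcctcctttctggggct
Ski intron 1, weaker region, chr4:155200830-155201030: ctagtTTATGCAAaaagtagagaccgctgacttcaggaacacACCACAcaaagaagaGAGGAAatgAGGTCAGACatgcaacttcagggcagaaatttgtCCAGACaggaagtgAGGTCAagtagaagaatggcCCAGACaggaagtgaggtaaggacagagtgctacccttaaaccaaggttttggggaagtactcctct
Skil promoter, farther region, chr3:31094565-31094765: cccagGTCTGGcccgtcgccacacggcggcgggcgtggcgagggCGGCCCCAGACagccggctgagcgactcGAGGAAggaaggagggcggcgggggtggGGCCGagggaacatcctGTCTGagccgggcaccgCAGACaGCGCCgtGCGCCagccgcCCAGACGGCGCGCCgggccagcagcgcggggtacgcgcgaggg
Skil promoter, nearer region, chr3:31094942-31095057: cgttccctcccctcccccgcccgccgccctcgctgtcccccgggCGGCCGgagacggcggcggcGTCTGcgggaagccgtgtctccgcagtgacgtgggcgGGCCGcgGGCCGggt
Tgif1 promoter, chr17:70851901-70852101: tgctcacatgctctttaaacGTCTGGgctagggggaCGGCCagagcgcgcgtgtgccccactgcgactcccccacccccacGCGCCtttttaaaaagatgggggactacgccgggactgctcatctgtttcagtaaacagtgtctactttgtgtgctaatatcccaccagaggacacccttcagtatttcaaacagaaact
The stronger Ski sequence held 3 CEBP strings and 1 SMAD box, and the weaker held 1 CEBP string and 3 SMAD boxes. The farther Skil sequence held 5 SMAD boxes, 4 GGCGC and 2 GGCCG, and neither Skil promoter sequence held a CEBP string.

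Of the 10 genes, 7 had a shared region in their window, beside 39.1% of all protein-coding genes. The share was also 39.1% among genes with windows in the members' range of lengths. That range took in 20506 of the 20923 protein-coding genes, so it was no control for window length. In 6 of the 10 at least 1 shared region was nearest to the gene's own TSS, beside 21.5% of all protein-coding genes. The regions were unevenly spread. Ldlrad4 held 9 of the 19, Skil 4, Ski 2, and Tgif1, Tgif2, Smurf1 and Smurf2 1 each. Trim33, Pmepa1 and Bambi had no peak in either list. By role, the corepressors had 8 regions, the ligases 2 and the membrane proteins 9, all of them at Ldlrad4. The windows together spanned 1441.5 kb and held 1.32 shared regions per 100 kb, beside 0.428 over the sequenced bases of the genome, which include sequence far from genes. Without Ldlrad4, 10 shared regions were left, or 0.955 per 100 kb of window. The members' median window was 112.6 kb with 1 shared region, and that of all protein-coding genes 100 kb with 0.

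**Figure D1:**
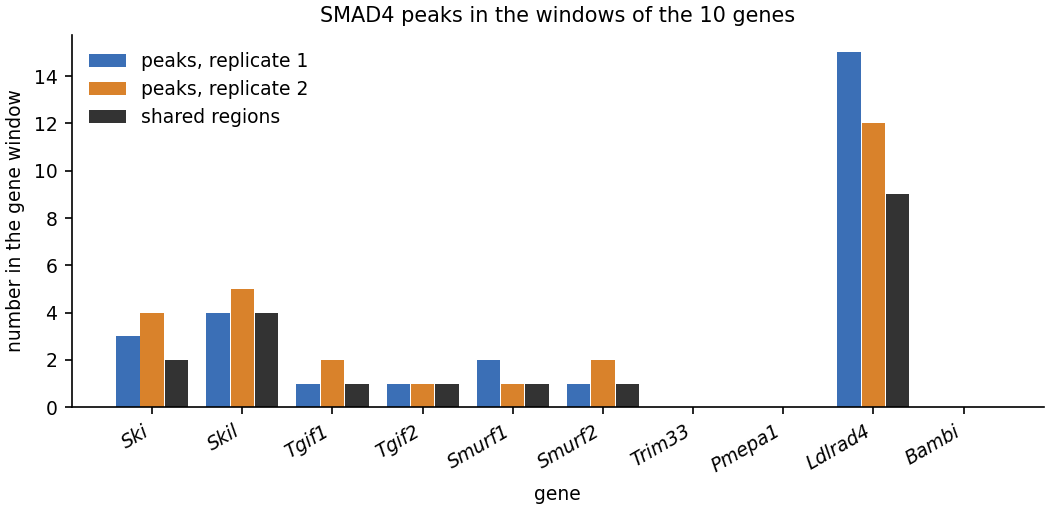
Number of SMAD4 peaks in each gene window in replicate 1 and replicate 2, and number of shared regions, for the 10 genes in order of role. Ldlrad4 had 15 and 12 peaks and 9 shared regions, Skil 4 and 5 peaks and 4 shared regions, and the bars of Trim33, Pmepa1 and Bambi are at 0.

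In each library 19 of the 27 peaks at these genes had a partner in the other library, or 70.4% (exact 95% binomial interval 49.8 to 86.2%, counting error only). Over the whole lists the share was 69.4% in replicate 1 and 59.2% in replicate 2. The 8 peaks without a partner in each library were weak. Their median fold enrichment, the summit pileup over the control level as given by the peak caller, was 4.87 in replicate 1 (3.9 to 5.85) and 5.65 in replicate 2 (4.51 to 6.77). Over the whole lists, peaks without a partner had median folds of 4.52 in replicate 1 and 5.41 in replicate 2. Those at the 10 genes had 11 to 17 fragments stacked at the summit in replicate 1 and 9 to 14 in replicate 2. Of these 16 peaks, 9 lay at Ldlrad4.

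Ski, the founding member of its corepressor family, carried the strongest region of the set. Its gene body lies on the minus strand at chr4:155154075-155222535, and the region at chr4:155216557-155217859 lay in intron 1, 5210 bp downstream of the TSS. Fold enrichment there was 20.5 in replicate 1, with 62 fragments, and 34.3 in replicate 2, with 75 fragments. The q-values given with the peaks were 3.14e-64 and 3.33e-101. The summits of the libraries lay 6 bp apart, the smallest gap in the set. Ranked by the smaller of its folds, the region stood at percentile 96.4 of all shared regions, and it was the only one of the 19 in the top 10%.

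The weaker Ski region, at chr4:155200669-155201394, was also in intron 1, 21605 bp from the TSS. It had a fold of 6.5 with 19 fragments in replicate 1 and of 15.8 with 34 fragments in replicate 2. Its fold was thus 2.43 times higher in replicate 2, a ratio at percentile 97.4 of all shared regions. Ski had a further peak in replicate 1 alone, with a fold of 5.52, and 2 in replicate 2 alone, with folds of 6.77 and 4.51.

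Skil was bound at its start site. The gene, whose product SnoN is degraded when TGFβ signals begin and is made again later as a feedback inhibitor, lies on the plus strand at chr3:31095058-31122923. Its 4 shared regions were all nearest to its own TSS, and 3 of them lay within 1239 bp upstream of it. The region at chr3:31094876-31095151 had its mean summit 16 bp upstream, with a fold of 6.5 (19 fragments) in replicate 1 and 10.4 (22 fragments) in replicate 2. The region at chr3:31094531-31094795, 393 bp upstream, had folds of 5.85 (17 fragments) and 7.67 (16 fragments). The third of the upstream regions, 1239 bp from the TSS, had folds of 6.17 and 9.02. The strongest Skil region was at chr3:31106649-31106948 in intron 2, with folds of 7.8 (23 fragments) and 12.6 (27 fragments). All were of middling strength, with the smaller fold at percentiles 39.3 to 63.3, and each was called separately in both libraries.

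A promoter was taken as 1 kb upstream to 100 bp downstream of a TSS. Of all protein-coding genes, 3.1% had a shared region in a promoter, and 0.0765%, or 16 genes, had 2 or more. Skil was 1 of the 16, and Tgif1 was the only other of the 10 genes with a promoter region. The Skil regions at 393 and 16 bp upstream were separated by 80 bp. Their GC contents in the 201 bp around the summits were 78.1% and 77.1%; the farther one was the highest of all 10964 shared regions, and only 2 regions were above the nearer one. Whether base composition bore on the calls there was not tested.

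In the 500 bp upstream of the Skil TSS there were 7 CAGAC, 15 GGCGC and 9 GGCCG strings. The median protein-coding gene had 1 CAGAC in that span, and 47 genes (0.225%) had as many as Skil or more. With 5 CAGAC within 100 bp of its summit, the farther promoter region was 1 of 20 shared regions (0.182%) with 5 or more, and the only one of the 704 in promoters (0.142%). These counts at Skil were taken up after its values had been seen, and are a description of this promoter.

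**Figure D2:**
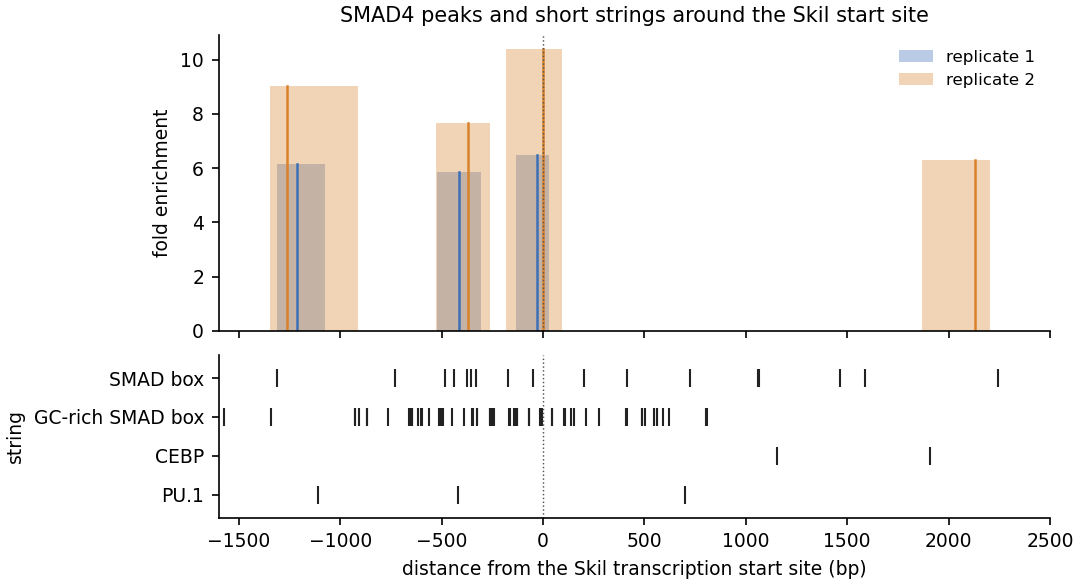
SMAD4 peaks and short strings around the Skil TSS, by distance from it in bp. The upper panel gives each peak's extent, with its fold enrichment as height and its summit as a line, for replicate 1 and replicate 2. The lower panel marks each string by its distance from the TSS. SMAD boxes crowd the region at 393 bp upstream. GC-rich boxes lie under the regions at 393 and 16 bp upstream and also between and outside them. No CEBP string lies under this pair, and the peak 2130 bp downstream was called in replicate 2 alone.

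Tgif1 and Tgif2 encode related homeodomain corepressors, and their regions differed in place. Tgif1 lies on the minus strand at chr17:70844205-70853532. Its region at chr17:70851646-70852593 lay 267 bp upstream of an inner TSS, which is also intron 1 of a longer transcript. The fold was 7.8 (23 fragments) in replicate 1 and 10.4 (22 fragments) in replicate 2, close to those of the Skil regions. The only region in the window of Tgif2 (chr2:156840007-156855570, plus strand) was weak, with folds of 4.22 (12 fragments) and 7.67 (16 fragments). It lay at chr2:156863863-156864119, downstream of Tgif2 and in an intron of Rab5if, 857 bp from the TSS of that gene and 23972 bp from that of Tgif2. Tgif2 thus had no shared region nearest to its own TSS.

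Both SMURF ligases had a single shared region, and neither was at a promoter. In Smurf1 (chr5:144876495-144965830, minus strand) it lay in intron 1, at chr5:144944376-144944786, 21271 bp from the TSS. Its fold was 3.86 in replicate 1 and 9 in replicate 2, on 21 and 33 fragments. The control level at its summit was 4.70 fragments in replicate 1 and 2.78 in replicate 2, above the genome-wide levels of 2.08 and 1.22, so the same pileup gave a lower fold than at most other regions. Replicate 1 had a further Smurf1 peak of fold 5.2, at 20643 bp from the TSS. In Smurf2 (chr11:106820061-106920715, minus strand) the region was intergenic, at chr11:106950498-106950680, 29881 bp upstream of the TSS. Its folds were 5.52 (16 fragments) and 6.32 (13 fragments), and its GC content of 27.9% was the lowest of the 19.

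Trim33 (chr3:103279293-103358770) had no peak in its window, and the closest peak to its TSS was 192 kb away in replicate 1 and 99 kb in replicate 2. Its closest shared region was 258 kb away. For Pmepa1 (chr2:173224465-173276533) the closest shared region was 203 kb away, near Ctcfl, with folds of 10.1 and 22.1. For Bambi it was 381 kb away, near Lyzl1, with folds of 8.77 and 9.02. The closest peaks in replicates 1 and 2 were 175 and 103 kb from the Pmepa1 TSS, and 164 and 227 kb from that of Bambi. The weakest peaks called anywhere had 9 fragments at the summit in replicate 1 and 7 in replicate 2. Binding at these genes was therefore not detected at this depth, and weaker binding cannot be told from none.

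Ldlrad4, a membrane adaptor that keeps SMAD2 and SMAD3 from the receptor complex, had more regions than any other of the 10 genes. It is also by far the longest, with a gene body of 322.4 kb at chr18:67933173-68255549 and a window of 394.8 kb. By number of shared regions it stood at percentile 99.7 of protein-coding genes, and by number per 100 kb of window, 2.28, at percentile 91.3. Skil had fewer regions in a shorter window, and stood at percentile 95.4 by number and, with 4 per 100 kb, at 97.1 by density. Ski stood at 85.1 and 83.3.

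Of the 9 Ldlrad4 regions, 8 lay in introns and 1 just past the end of the gene. None was at a promoter. The strongest, at chr18:68061748-68062371 in intron 1, had a fold of 14.0 with 42 fragments in replicate 1 and of 15.8 with 34 fragments in replicate 2. It lay 128858 bp from the closest Ldlrad4 TSS, and stood at percentile 89.3 by the smaller fold. Intron 1 held 2 other regions, with folds of 10.4 and 15.3 at the first and of 6.3 and 14.9 at the second. Intron 3 held a further 3, of which the one with folds of 8.77 and 12.6 had 6 CAGAC strings within 100 bp of its summit. The weakest of the 9 had folds of 4.47 and 3.07 and summits 219 bp apart, the largest gap in the set, so that its place was poorly set. The 2 regions at the 3′ end, with folds of 10.7 and 13.5 and of 6.82 and 5.41, were nearest to the TSS of the microRNA gene Mir7219.

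**Figure D3:**
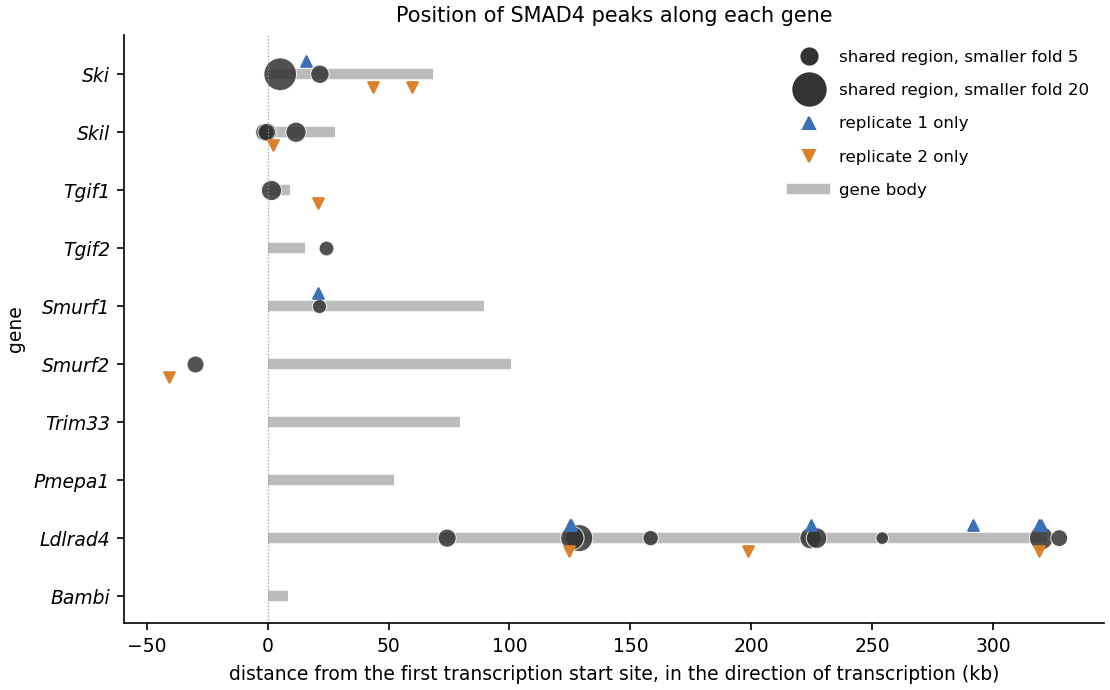
Position of shared regions (circles, area in proportion to the smaller fold of both libraries) and of peaks of a single library (triangles) along each of the 10 genes, in kb from the first TSS in the direction of transcription; grey bars are gene bodies. Most regions lie inside genes: the largest circle is Ski at 5210 bp, the 9 of Ldlrad4 spread over its gene body and just past its end, and Trim33, Pmepa1 and Bambi have no mark.

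Across the 19 regions, 13 lay in the gene body of the member and 3 within 1 kb of its TSS. By feature, 3 were in promoters, 13 in introns, 1 at a transcription end and 2 in intergenic sequence. Of all shared regions 6.42% were in promoters, 49.3% in introns and 40.5% in intergenic sequence. The window rule takes in whole gene bodies, so a larger share in introns follows in part from the rule. The median distance to the closest TSS of the member was 25098 bp, from 16 to 136392 bp. Toward the 50 kb limit, the region farthest from a TSS but outside a gene body was that of Ldlrad4 at 32536 bp. The first shared regions beyond a window were nearest to other genes. One lay 91.6 kb from the Smurf2 TSS, nearest to Kpna2, with folds of 7.47 and 5.87. Another lay 99.8 kb from a Tgif1 TSS, nearest to Gm41609, with folds of 4.87 and 5.87.

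The regions at these genes were of ordinary strength. Their median fold was 6.5 in replicate 1 (3.86 to 20.5) and 10.4 in replicate 2 (3.07 to 34.3), and that of all shared regions was 6.82 and 9.48. The median pileup was 21 and 22 fragments, beside 20 and 21 over all shared regions. By the smaller fold, 8 of the 19 were above the median of all shared regions. The fold was higher in replicate 2 in 16 of the 19, with a median ratio of 1.46, and in 87.2% of all shared regions, with a median ratio of 1.39. Such ratios depend on both the pileup and the control level, which was lower in replicate 2. The ratios were not read as a difference in binding. The exceptions were all at Ldlrad4, where 3 regions had the higher fold in replicate 1.

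**Figure D4:**
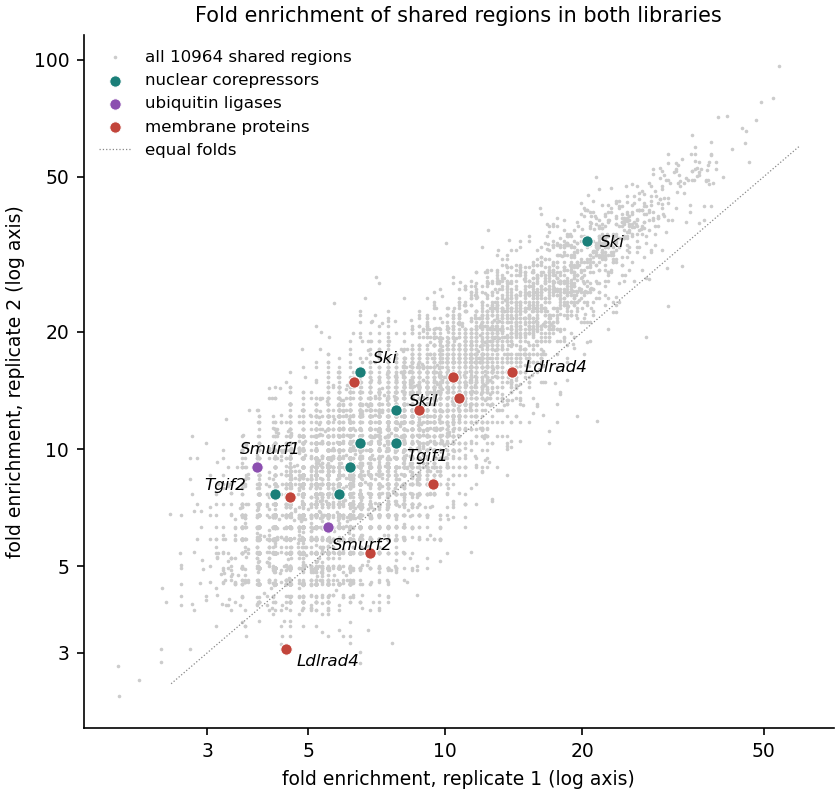
Fold enrichment of shared regions in replicate 1 (x axis) and replicate 2 (y axis), both on log axes, for all 10964 regions (grey) and the 19 regions of the 10 genes (coloured by role); the dotted line marks equal folds. One Ski region, at 20.5 and 34.3, stands in the upper part of the cloud. By the smaller fold, the strongest Ldlrad4 region, at 14.0 and 15.8, comes next among the 19.

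In 201 bp around the summit, 12 of the 19 regions (63.2%, exact 95% interval 38.4 to 83.7%) held CAGAC, beside 38.8% of all shared regions, a share that this interval includes. GTCTGG, which contains the reverse complement of CAGAC and so counts in part the same bases, was in 6 (31.6%, 12.6 to 56.6%), beside 11.2%. The CAGAC regions lay in 4 of the genes, Ski, Skil, Tgif1 and Ldlrad4, and the regions of one gene are not independent of each other. Without Ldlrad4, 6 of 10 regions held CAGAC. Within 50 bp of the summit GTCTGG was in 2 of the 19 (10.5%), beside 5.83% of all shared regions. The intervals cover counting error only. Since CAGAC is 5 bases long, a match is a description of the sequence and not a bound site.

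The strings of macrophage factors were found at shares that did not stand above those of all shared regions, and each interval included the share of all. The CEBP string was in 7 regions (36.8%, 16.3 to 61.6%), beside 40.9% of all shared regions, and the PU.1 string in 5 (26.3%, 9.15 to 51.2%), beside 34.6%. The RUNX string was in 4 regions (21.1%, 6.05 to 45.6%), beside 26.4%, and the AP-1 string in 1 (5.26%, 0.133 to 26%), beside 12.3%, the latter at the strongest Ski region. AGGTCA was in 1 (5.26%, 0.133 to 26%), at the weaker Ski region, beside 15.4% of all shared regions. The palindrome GTCTAGAC and the E-box CACGTG were in 0 of the 19, which allows a share of up to 17.6% by the exact interval, beside 0.465% and 3.65%. CAGAC and the CEBP string occurred together in 5 regions, among them both of Ski, and in 15.1% of all shared regions. The regions of Smurf1 and Smurf2, the strongest of Ldlrad4 and the intronic one of Skil held no SMAD box, GC-rich SMAD box, CEBP string or PU.1 string.

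The promoter regions of this set differed from its others in their strings, but only 3 regions, from Skil and Tgif1 alone, were compared. The pair at Skil shares 1 promoter, and so few regions show no general difference. All 3, a pair at Skil and 1 at Tgif1, held CAGAC and both GC-rich boxes within 100 bp of the summit, and 0 held the CEBP string. The GGCGC strings of the nearer Skil region lay downstream of the TSS, outside the sequence printed above. The other 16 regions held no GGCGC and no GGCCG. Among the 704 shared regions in promoters, 37.2% held CAGAC, 18.3% GGCGC, 15.6% GGCCG and 40.6% the CEBP string, and the median GC content was 47.8%. GGCGC and GGCCG consist of G and C alone and become more frequent with GC content, which was 53.7% at Tgif1.

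**Figure D5:**
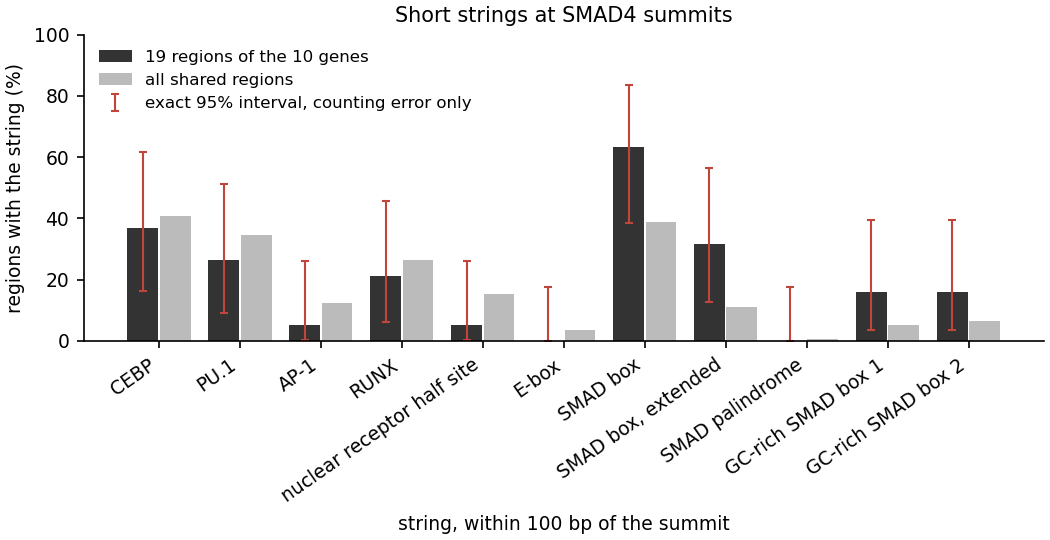
Share of regions with each short string within 100 bp of the summit, for the 19 regions of the 10 genes (dark bars, with exact 95% intervals for counting error) and for all shared regions (grey bars), from 0 to 100%. The SMAD box CAGAC stands at 63.2% beside 38.8%, its extended form at 31.6% beside 11.2%, and the CEBP string at 36.8% beside 40.9%.

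Of 16 further regulators of TGFβ and SMAD signals, not all of them inhibitors, 7 had a shared region in their window. In 4 of the 16, a shared region was nearest to the gene's own TSS. These counts are near the 39.1% and 21.5% of all protein-coding genes. Those with most regions were the ligase gene Nedd4l, with 3 (strongest folds 6.5 and 8.12), the inhibitory SMAD gene Smad7, with 2 (9.1 and 14.4), and Strap, whose product binds TGFβ receptors and SMAD7, with 2 (5.2 and 9.93). Neither region of Smad7 was nearest to its own TSS. None of these genes had as many regions as Skil or Ldlrad4.

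Peaks rested on few fragments in both libraries, with a median summit pileup of 17 fragments in replicate 1 and 14 in replicate 2 and a median fold of 5.52 and 6.77. As a check on the cell type label, all 6 AM marker genes had a shared region in their window, from 3 to 11 each, and so did 3 of 6 marker genes of other lung cells, beside 39.1% of all protein-coding genes. The latter had 0 to 5 regions each. The club cell gene Scgb1a1, with 5, had more than 4 of the 6 AM genes, and the neutrophil gene S100a8 had 3. A bound region near a gene does not show that the gene is expressed. No expression was measured in these samples, so whether SMAD4 raises or lowers any of the 10 genes in AMs was not tested.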

How the data were processed

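SMAD4 HT-ChIPmentation peak lists of 2 wild-type AM libraries were used. The 2 input libraries were used through the control level of the peak calls. Samples were grouped by the labels as ChIPmentation or input, and replicates were numbered in accession order. Per the study's methods, the authors removed adapters with Cutadapt, mapped read pairs to mm10 with Bowtie2, marked duplicates with PICARD, filtered with samtools, and called peaks in each sample separately with MACS3 against input at a q-value limit of 0.05. The labels and the study's methods name different makers of the SMAD4 antibodies. Each deposited peak has its position and summit, a fold ratio (summit pileup plus 1 over control level plus 1), a −log10 p and −log10 q, and a score, which was not used. Peak ends all lay within the GRCm38 chromosomes.

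Pileup and control level were solved from the deposited fold and p. All pileups came out whole, with a largest misfit in −log10 p of 0.000516 in replicate 1 and 0.00054 in replicate 2. The control level was at its genome-wide value, 2.08 and 1.22 fragments, at 79.3% and 80.9% of summits. Sequencing totals were not used here. Gene models were curated RefSeq transcripts. Coordinates are 1-based. Strings were searched on both strands within 100 bp of the mean summit. Intervals are exact Clopper-Pearson intervals. No test was run: both peak lists are of 1 condition, and no values of the input libraries themselves were used here. The steps were tested on simulated data.

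The members and lists were chosen with earlier results of these data known. Genes named were all 10 members by role, each with its strongest shared region by the smaller fold and every promoter region, the gene of the nearest TSS where that was another gene, and the 3 further pathway genes with most regions. Alternatives were windows of 10 and 100 kb, predicted transcripts, 50% reciprocal overlap, summits within 100 bp, q limits of 0.01 and 0.001, a fold of at least 5, single libraries, the genome-wide control level, regions nearest to a member alone, string windows of 50 and 200 bp, and, chosen after seeing the data, leaving out Ldlrad4. Python 3.11.15, numpy 2.4.6, pandas 2.3.3, scipy 1.17.1, pysam 0.24.0 and matplotlib 3.10.9 were used.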

Additional observations from a re-analysis of the deposited data

How the results depend on the processing

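Of 182 values under other settings, 163 stayed within the limits set for the reported value and 19 moved. The limits were a fixed ratio for counts, the exact interval for shares and the spread between libraries for median folds. Trim33, Pmepa1 and Bambi had no peak in either list, so stricter settings could not change their counts. The values of these genes are all counted among the 163, so some of the 163 could not have moved. Within 50 bp of the summit, CAGAC was in 7 of the 19 regions, GTCTGG in 2 and the CEBP string in 4, since a shorter stretch holds fewer strings. CAGAC was then in 36.8% of the regions beside 21.9% of all shared regions, GTCTGG in 10.5% beside 5.83%, and the CEBP string in 21.1% beside 28%. Within 200 bp, CAGAC was in 78.9% beside 62.2%, GTCTGG in 42.1% beside 21.5%, and the CEBP string in 36.8% beside 49.7%. Without Ldlrad4, chosen after seeing the data, 10 shared regions were left, of which 9 were nearest to a member's TSS, 6 held CAGAC and 3 the CEBP string. Tgif2 had no shared region in a window of 10 kb, with 50% reciprocal overlap or at a fold of at least 5, Smurf2 none in a window of 10 kb and Smurf1 none at a fold of at least 5. Ldlrad4 had 6 with 50% reciprocal overlap, 7 at a fold of at least 5, and 8 or 9 under the other window, transcript, overlap and q settings. All members together had 15 under each of the former 2 settings, and 16 to 21 under the latter. With each library alone, the windows held 27 peaks in either, of which 22 were nearest to a member's TSS, 7 members had a peak, and 8 to 10 of the further pathway genes did. With the summit of a single library, CAGAC was in 11 to 12 regions, GTCTGG in 5 to 6 and the CEBP string in 6. No paired analysis was possible because the series has a single condition, and replicate numbers given in accession order pair no library with an input. Peaks with few fragments limit what can be seen: a region missing from a list may be bound below the calling limit.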
